A study of Homo sapiens with 12 samples.

Results

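The genes described here are the receptor, kinase and transcription factor genes that carry the type I interferon signal from the cell surface to the nucleus. They were IFNAR1, IFNAR2, JAK1, TYK2, STAT2, IRF1, IRF3, IRF7 and IRF9, and they were chosen by symbol, as 9 of the 63241 genes in the deposited table. The series measured polyadenylated RNA in T98G and U251, both established lines of human glioblastoma cells. Within each of them, libraries labelled PEPD-OE, for over-expressed PEPD (the dipeptidase prolidase), were set against libraries labelled NC, a control abbreviation that the labels leave unexplained. There were 3 libraries in each of the 4 groups, 12 in all, with no further treatment, time or vector named. Nothing in the labels tells whether the 3 replicates of a group were grown apart, so the p-values describe the spread between these libraries, which may be technical.

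Type I interferons bind a receptor made of the IFNAR1 and IFNAR2 chains, to which the kinases TYK2 and JAK1 are attached. The kinases phosphorylate STAT proteins, of which STAT2 joins IRF9 in the complex ISGF3 and switches on genes that carry an interferon-stimulated response element. IRF3 and IRF7 act before this step, by inducing interferon genes when nucleic acid is sensed, and IRF1 is itself an interferon-induced activator of immune genes. Protein amounts and phosphorylation, on which the signal runs, were not measured, and in bulk RNA fewer expressing cells and less RNA per cell cannot be told apart.

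Library totals ran from 464056 to 924204 counts, and 3 counts in a library equalled 3.20 to 6.33 CPM. The rarer members rest on few counts. CPM here means counts scaled to 1000000 counts over the 8773 genes that passed the filter, after adjustment of the library sizes by trimmed mean of M values (TMM). PEPD (chromosome 19, 33386950 to 33521794) stood at 164 ± 9.50 CPM in T98G PEPD-OE against 11.0 ± 8.20 in NC, and at 175 ± 10.6 against 9.55 ± 3.44 in U251 (SD, n = 3 each), in the direction of the labels. Of 10 glioma and astrocyte markers, 7 had counts in both T98G groups, with 1 count of SOX2 in each, and OLIG2 was at 0 in every group. Summed levels of the glioma and of the fibroblast and pericyte markers differed between PEPD-OE and NC. Over all genes, 32.3% were called in T98G (17.7% higher, 14.7% lower) and 8.55% in U251 (4.13% higher, 4.42% lower). The 2 of 7 glioma markers called in T98G lie near the 32.3% for either direction. Both were lower, where 14.7% of all genes were. The 3 of 7 called in U251, all lower, lie above the 4.42% of all genes called lower there. The summed glioma markers ran from 1183 to 1361 CPM in T98G PEPD-OE against 1635 to 1698 in NC (2 of 7 tested called lower). In U251 they ran from 3300 to 3860 CPM against 4730 to 4822 (3 of 7 lower). The summed 6 fibroblast and pericyte markers ran from 541 to 667 CPM in T98G PEPD-OE against 243 to 310 in NC (2 of 2 tested higher, DCN at 0 counts in both), and in U251 from 309 to 399.9 against 507 to 544 (1 of 2 lower). Of 6 epithelial markers 3 were tested, with 1 higher and 1 lower in T98G and none called in U251, and EPCAM was at 0 throughout. The part of these shifts in the results was not tested. The T98G libraries numbered 2 stood apart: over 16 macrophage, microglia, lymphocyte and dendritic cell markers they held 68 counts in PEPD-OE and 61 in NC, against 0 to 9 in each of the other 10 libraries. PTPRC, the pan-leukocyte marker CD45, made up 25 and 35 of those counts. With both of these libraries left out, a setting chosen after the data were seen, the T98G calls of IFNAR2, JAK1, IRF1 and IRF7 held, and those of STAT2 and IRF3 did not (edgeR adjusted p = 0.113 and 0.233).

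The counts of 4 members need a second gene beside them. In GENCODE release 29 the exons of IFNAR2, JAK1, IRF1 and IRF3 share bases with exons of a gene on the other strand, and in this series many reads stand under the gene opposite an abundant transcript. MT-ND6, which lies on the mitochondrial strand opposite most protein genes there, held 233900 counts per kb of exon against 85224 for MT-ND5, the next highest. IL10RB-DT, a noncoding RNA that shares 1803 exon bases with IFNAR2, held 58.7 times the counts per kb of IFNAR2. BCL2L12 held 4.62 times those of IRF3 over a shared stretch of 734 bases. IRF1-AS1 shares 1716 bases with IRF1 and held 1.40 times its counts per kb, while RAVER2 shares only 4 bases with JAK1 and held 0.247 times its counts per kb. The strand setting of the counting is not given in the sources used here. If reads were assigned to the opposite strand, values under members without such an overlap (IFNAR1, TYK2, STAT2, IRF7 and IRF9) are residual reads. So are those under JAK1 outside its 4 shared bases. Where the exons overlap, the rows of IFNAR2, IRF1 and IRF3 would then hold reads of their partners, and the partner rows reads of these members.

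In T98G, 6 of the 8 tested members were called under PEPD over-expression: IFNAR2, JAK1 and IRF3 rose, and STAT2, IRF1 and IRF7 fell. IRF9 was too sparse to test. The call rule was an edgeR quasi-likelihood p that stayed under 0.05 after adjustment over all 8773 genes, and 32.3% of all genes were called in this comparison (17.7% higher and 14.7% lower). The median log2 fold change was 0.37 over the 8 members and 0.00 over all genes. In U251, 2 of the 8 were called, STAT2 and IRF1, both lower, where 8.55% of all genes were called (4.13% higher and 4.42% lower). Over the 7 members with a fold in U251 the median was 0.11. Read from the receptor inward, STAT2 was the first member called lower in either line, with a T98G call lost in 9 of 24 alternative settings. None of the receptor chains and their kinases was called lower. However, the 2-SE intervals of IFNAR1 and TYK2 include a fall in both lines, and those of IFNAR2 and JAK1 include one in U251. With IRF9 untested as well, these calls do not place the step at which the response is lost.

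**Figure D1:**
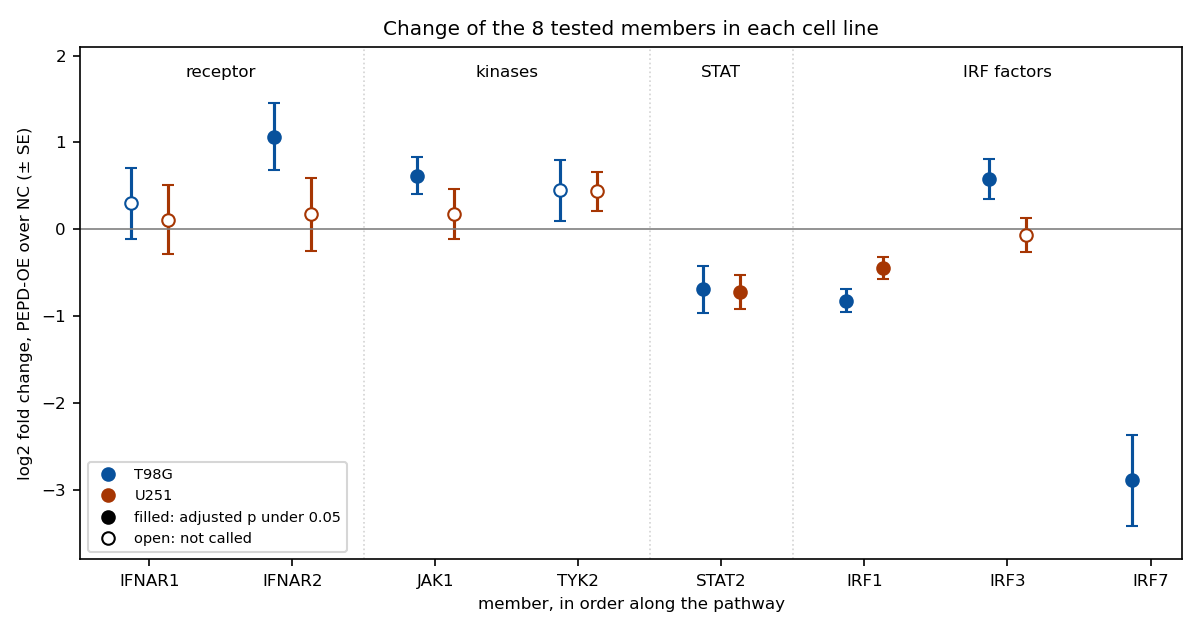
Log2 fold change of PEPD-OE over NC (vertical axis, bars are SE from the fit) for the 8 tested members in pathway order (horizontal axis), T98G in blue and U251 in brown, filled where called. Receptor and kinase genes lie at or above 0 in both lines, STAT2 and IRF1 below 0 in both, and IRF7 in T98G at -2.89; IRF7 has no fold in U251.

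IFNAR1 (ENSG00000142166, GRCh38 chromosome 21, 33324477 to 33359862, plus strand), the chain that holds TYK2, lay at a similar low level in all groups. Its T98G PEPD-OE libraries had 19.2, 10.9 and 18.5 CPM and the NC libraries 14.8, 12.99 and 12.5. In U251 they had 15.1, 13.1 and 12.8 CPM in PEPD-OE against 19.3, 10.3 and 7.69 in NC. The groups overlapped in both lines. The log2 fold change was 0.30 in T98G (SE 0.41, edgeR adjusted p = 0.622, 2-SE interval -0.52 to 1.11) and 0.11 in U251 (SE 0.40, adjusted p = 0.922, interval -0.68 to 0.90). These intervals hold both a rise and a fall, so the direction cannot be read at this depth.

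IFNAR2 (ENSG00000159110, chromosome 21, 33229901 to 33265675, plus strand), the chain that binds interferon with high affinity and docks STAT2, was highest in T98G PEPD-OE. Its libraries there had 31.1, 15.6 and 29.9 CPM, against 6.33, 12.99 and 15.1 in T98G NC. The 3 PEPD-OE libraries lay above the 3 NC libraries, the second by a narrow gap. The log2 fold change was 1.07 (SE 0.38, adjusted p = 0.0223), on 52 against 25 counts. The call was lost with DESeq2 (adjusted p = 0.0953), with no filter on low counts (0.0503), and without T98G PEPD-OE replicate 1 (0.113) or 3 (0.0965) or NC replicate 1 (0.0942).

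In U251 the IFNAR2 values were 9.04, 13.1 and 13.9 CPM in PEPD-OE and 16.9, 2.58 and 12.8 in NC. These overlapped, and the log2 fold change was 0.17 (SE 0.42, adjusted p = 0.879). Its partner IL10RB-DT, a divergent transcript of the neighbouring cytokine receptor gene IL10RB, moved the same way in T98G, from 531 ± 48.6 to 738 ± 36.1 CPM (log2 fold change 0.47, SE 0.11, adjusted p = 1.26e-04). In U251 it was 263 ± 23.4 in NC and 233 ± 42.3 in PEPD-OE (adjusted p = 0.389). Counted together, IFNAR2 and IL10RB-DT rose by 0.49 on the log2 scale in T98G (adjusted p = 5.85e-05). Over all libraries the IL10RB-DT row held 3770 counts and the IFNAR2 row 133, so this sum follows the IL10RB-DT row. Which gene of the pair gave the reads of that row was not tested, so the sum does not settle whether IFNAR2 rose.

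JAK1 (ENSG00000162434, chromosome 1, 64833229 to 64966504, minus strand), the kinase bound to IFNAR2 and shared with the interferon gamma and IL6-family receptors, was higher in T98G than in U251 and rose further in T98G PEPD-OE. The T98G PEPD-OE libraries had 76.9, 79.5 and 69.8 CPM and the NC libraries 46.4, 62.4 and 37.6. The groups did not overlap. The log2 fold change was 0.62 (SE 0.21, adjusted p = 0.0169), a call lost with DESeq2 (0.0829) and without PEPD-OE replicate 2 (0.0591) or NC replicate 3 (0.195). In U251 the libraries overlapped, at 22.6, 31.0 and 21.4 CPM in PEPD-OE and 28.9, 23.2 and 14.1 in NC (log2 fold change 0.17, SE 0.29, adjusted p = 0.811).

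TYK2 (ENSG00000105397, chromosome 19, 10350529 to 10380676, minus strand), the kinase bound to IFNAR1, was not called in either line. T98G libraries had 20.7, 20.3 and 21.4 CPM in PEPD-OE and 12.7, 14.3 and 17.6 in NC. All 3 PEPD-OE libraries lay above NC, but on 42 against 31 counts the log2 fold change of 0.45 had an SE of 0.35 (adjusted p = 0.347). The U251 libraries had 40.7, 47.8 and 60.9 CPM in PEPD-OE and 37.3, 32.2 and 42.3 in NC, which overlapped (log2 fold change 0.44, SE 0.23, adjusted p = 0.255).

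**Figure D2:**
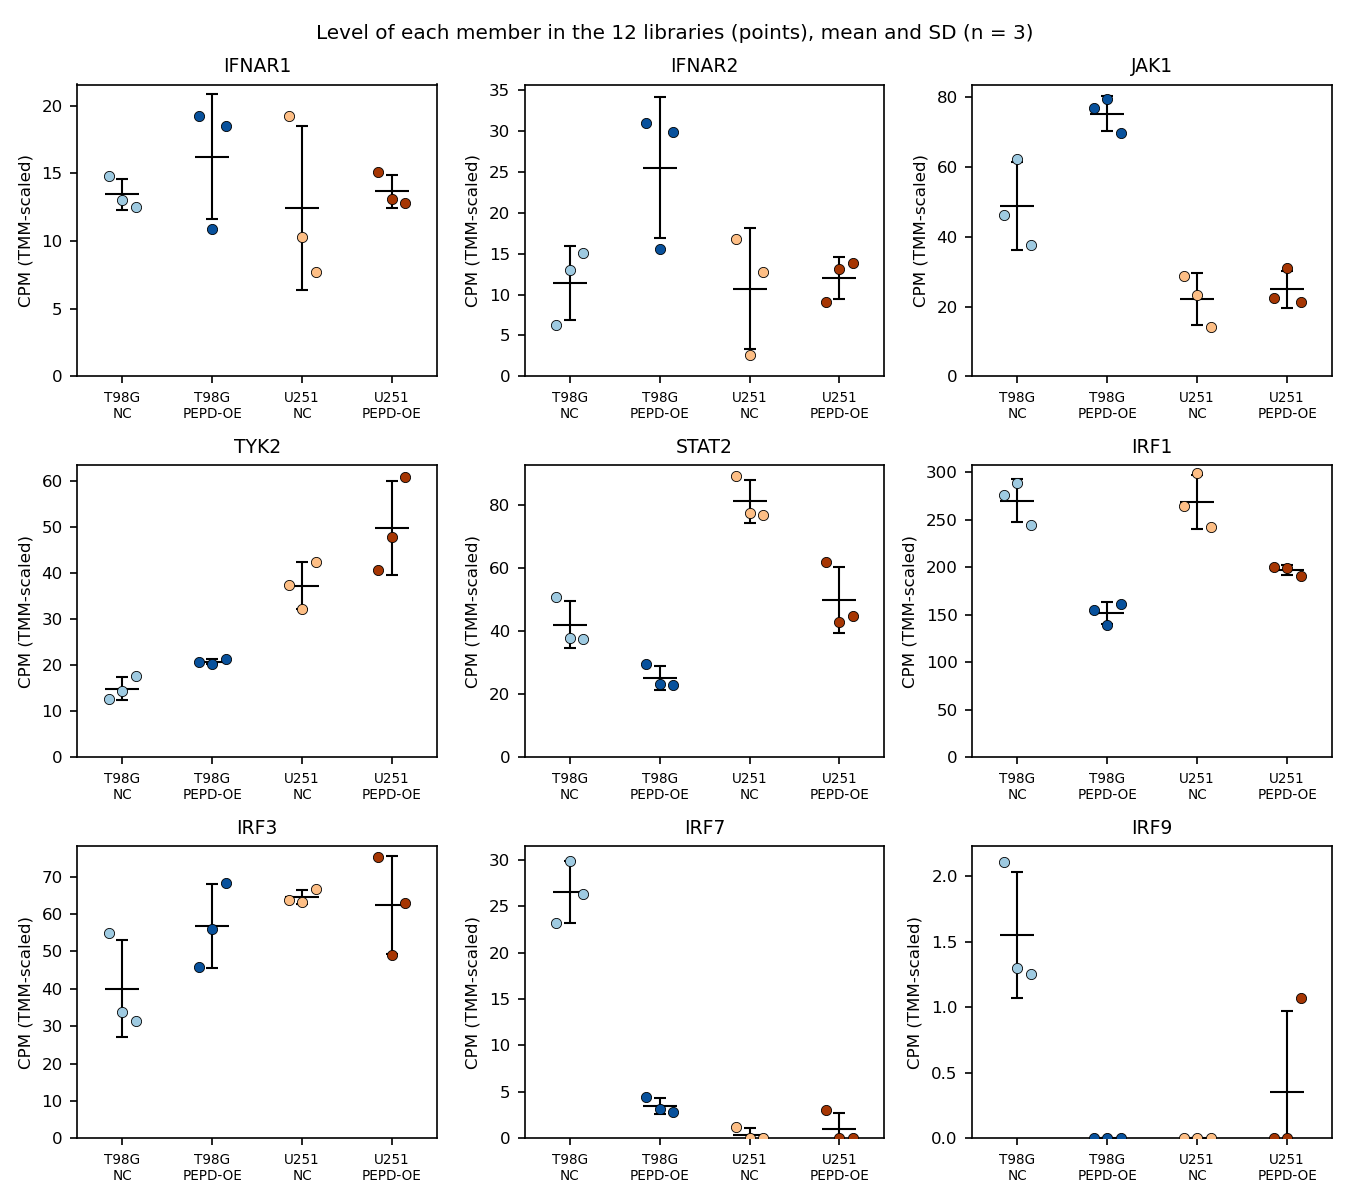
TMM-scaled CPM of the 9 members (one panel each, vertical axes start at 0 and differ in range) in the 3 libraries of each group (points), with mean and SD. STAT2 and IRF1 are lower in PEPD-OE in both lines, IRF7 is high in T98G NC alone, and IRF9 never exceeds 1 count in a library.

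The promoters of the STAT2, IRF1 and IRF9 genes are shown because these are the members that make up, or answer to, the STAT complexes and were low or lower. They come from RefSeq for GRCh38.p14 and run from 250 bases before to 50 after a listed start, 5′ to 3′ on the gene's strand. Of the 9 members 6 matched an entry, all but IFNAR2, IRF3 and IRF7, with 9 windows in total. Capitals mark the gamma-activated site, a STAT motif, searched on both strands as TTC NNN GAA, where N is any base, which reads the same on either strand. The interferon-stimulated response element was searched on both strands as GAAA NN GAAA. The windows lie at chr12:56360058-56360357 (minus strand), chr5:132490724-132491023 (minus strand) and chr14:24161015-24161314 (plus strand), in the order below.
STAT2: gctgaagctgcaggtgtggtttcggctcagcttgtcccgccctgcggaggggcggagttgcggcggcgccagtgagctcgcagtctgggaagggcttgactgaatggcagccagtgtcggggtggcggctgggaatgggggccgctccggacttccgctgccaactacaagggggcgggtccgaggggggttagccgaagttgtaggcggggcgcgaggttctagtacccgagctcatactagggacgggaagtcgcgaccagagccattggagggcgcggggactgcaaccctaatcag
IRF1: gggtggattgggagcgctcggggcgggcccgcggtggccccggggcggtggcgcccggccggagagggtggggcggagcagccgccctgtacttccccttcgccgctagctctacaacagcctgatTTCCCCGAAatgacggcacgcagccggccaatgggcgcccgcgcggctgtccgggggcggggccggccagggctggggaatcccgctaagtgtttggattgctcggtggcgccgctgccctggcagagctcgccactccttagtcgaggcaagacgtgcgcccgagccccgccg
IRF9: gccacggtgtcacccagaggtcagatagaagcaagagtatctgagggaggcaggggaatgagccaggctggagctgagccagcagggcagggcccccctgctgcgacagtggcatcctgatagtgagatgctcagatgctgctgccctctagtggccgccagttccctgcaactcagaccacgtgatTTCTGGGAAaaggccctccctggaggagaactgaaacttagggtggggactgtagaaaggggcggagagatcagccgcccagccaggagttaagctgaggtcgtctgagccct

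Among the 9 windows, the gamma-activated motif was found in those of IRF1 (TTCCCCGAA, starting 124 bases before the start site) and IRF9 (TTCTGGGAA, 63 bases before it). It occurred in 7.66% of all 35116 promoter windows. The response element letters were found in none of the 9 windows and in 3.57% of all. A match describes letters and is no evidence of binding.

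STAT2 (ENSG00000170581, chromosome 12, 56341597 to 56360155, minus strand), the subunit that gives ISGF3 its activation domain, was lower in PEPD-OE in both lines. T98G libraries had 29.6, 23.4 and 22.8 CPM in PEPD-OE and 50.7, 37.7 and 37.6 in NC. U251 libraries had 61.8, 43.0 and 44.9 CPM in PEPD-OE and 89.1, 77.3 and 76.9 in NC. In both lines every PEPD-OE library lay below every NC library. STAT2 fell in T98G by 0.69 (log2, SE 0.27, adjusted p = 0.0382) and in U251 by 0.73 (log2, SE 0.19, adjusted p = 0.00662).

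No difference of the STAT2 change between T98G and U251 could be detected (difference of log2 fold changes 0.03, SE 0.35, adjusted p = 0.965, 2-SE interval -0.67 to 0.74). The T98G call was lost in 9 of 24 alternatives, among them DESeq2 (adjusted p = 0.0964) and the removal of PEPD-OE replicate 2 (0.104) or 3 (0.124) or NC replicate 1 (0.138) or 3 (0.0514). The U251 call was lost without PEPD-OE replicate 2 (0.0738) and without NC replicate 1 (0.0626).

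IRF9 (ENSG00000213928, chromosome 14, 24161053 to 24166565, plus strand), the DNA-binding subunit of ISGF3, held 4 counts in all 12 libraries. One count stood in each T98G NC library and in U251 PEPD-OE replicate 3, and the other 8 libraries had none. A group at 0 allows up to 1.49 CPM in T98G PEPD-OE and 1.26 in U251 NC (3 counts over the group), so no difference could be seen at this depth. Such limits cover counting error only.

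IRF1 (ENSG00000125347, chromosome 5, 132481609 to 132490798, minus strand) was the most highly counted member. Its row had the smallest SE among the members called lower. That SE does not cover the strand question raised by its overlap with IRF1-AS1. T98G libraries had 155, 139 and 161 CPM in PEPD-OE and 276, 289 and 245 in NC. U251 libraries had 200.4, 199 and 191 CPM in PEPD-OE and 265, 299 and 242 in NC. The NC levels of the lines were alike and the PEPD-OE levels lay below them without overlap. IRF1 fell in T98G by 0.83 (log2, SE 0.13, adjusted p = 6.37e-08) and by 0.45 in U251 (SE 0.12, adjusted p = 0.0091). The T98G call held in 23 of 23 alternatives, and the U251 call was lost without U251 NC replicate 2 (adjusted p = 0.0866).

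IRF1-AS1, annotated as antisense to IRF1, fell in T98G from 643 ± 56.6 to 281 ± 23.2 CPM (log2 fold change -1.19, SE 0.11, adjusted p = 1.63e-18). In U251 it had 358 ± 21.8 CPM in NC and 304 ± 30.7 in PEPD-OE (log2 fold change -0.24, adjusted p = 0.196). Its change differed between the lines (difference -0.95, adjusted p = 2.18e-07), whereas that of IRF1 did not pass (difference -0.38, SE 0.18, adjusted p = 0.112). Counted together the pair fell by 1.08 in T98G and 0.32 in U251, and the difference of -0.75 was called (adjusted p = 5.74e-06). Which gene of the pair gave the reads of each row was not tested.

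IRF3 (ENSG00000126456, chromosome 19, 49659569 to 49665875, minus strand), the constitutive factor that induces interferon beta after nucleic acid sensing, was called higher in T98G with groups that overlapped. Its libraries had 45.9, 56.1 and 68.4 CPM in PEPD-OE and 54.9, 33.8 and 31.4 in NC. The log2 fold change was 0.58 (SE 0.23, adjusted p = 0.0458), and the call was lost in 12 of 23 alternatives. Among these were upper-quartile scaling (adjusted p = 0.07), DESeq2 (0.132), and leaving out T98G PEPD-OE replicate 2 (0.0799) or 3 (0.263), or T98G NC replicate 2 (0.19) or 3 (0.256). It was also lost on leaving out U251 NC replicate 1 (0.0524), 2 (0.0525) or 3 (0.0548).

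In U251 the IRF3 libraries had 75.3, 49.0 and 63.0 CPM in PEPD-OE and 63.8, 63.1 and 66.6 in NC. The NC values lay inside the PEPD-OE range (log2 fold change -0.06, SE 0.19, adjusted p = 0.907). BCL2L12, the apoptosis regulator gene on the other strand, had 66.5 ± 1.18 CPM in T98G NC and rose to 190 ± 16.5 in PEPD-OE (log2 fold change 1.51, SE 0.16, adjusted p = 4.03e-15) and was 160 ± 16.7 and 182 ± 25.1 CPM in U251 NC and PEPD-OE (adjusted p = 0.502). Counted together, IRF3 and BCL2L12 rose by 1.23 in T98G (adjusted p = 2.76e-13), against 0.58 for IRF3 alone. Over all libraries the BCL2L12 row held 1339 counts and the IRF3 row 496, so the BCL2L12 row makes up most of this sum. Which gene of this pair gave the reads of each row was not tested.

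**Figure D3:**
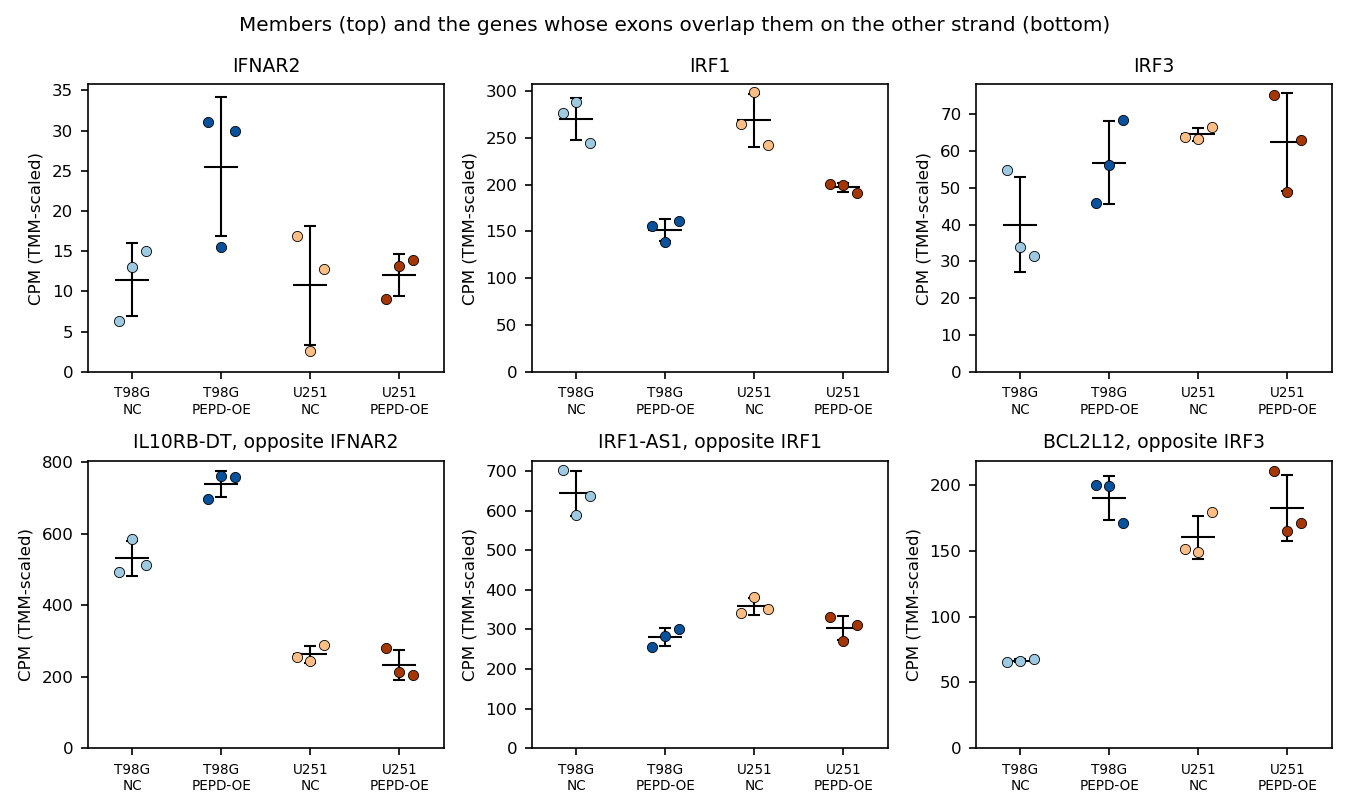
TMM-scaled CPM in each library (points), with mean and SD, for IFNAR2, IRF1 and IRF3 (top) and the genes overlapping them on the other strand (bottom). In T98G each partner moves in the same direction as its member, and in all 4 groups the partners stand at higher mean CPM than the members.

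IRF7 (ENSG00000185507, chromosome 11, 612553 to 615999, minus strand), the interferon-inducible factor that amplifies interferon alpha production, had the largest fold change of the tested members. T98G NC libraries had 23.2, 29.9 and 26.3 CPM (11, 23 and 21 counts), and PEPD-OE libraries 4.44, 3.12 and 2.85 (3, 2 and 2 counts). The groups were far apart. IRF7 fell by 2.89 (log2, SE 0.52, adjusted p = 1.55e-06), a 7.43-fold change, and the call held in 24 of 24 alternatives. In U251 it had 2, 0 and 0 counts in PEPD-OE and 1, 0 and 0 in NC, so no fold can be given there and the change cannot be compared between the lines.

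None of the 7 members with a fold in both lines was called for a difference in change between the lines, where 27.7% of all genes were (edgeR). IRF7 and IRF9 could not be compared in this way. By the same edgeR fit, IRF1 and IRF3 had unadjusted p-values of 0.0393 and 0.0366. The IRF3 difference of 0.64 was called without T98G NC replicate 1 (0.87, adjusted p = 0.0387) and when BCL2L12 was added to IRF3 (1.11, adjusted p = 5.26e-07). DESeq2 called no member either.

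The 4 groups were also compared line against line. Among NC libraries 5 of 8 members were called, where 48.7% of all genes were: JAK1 and IRF7 were higher in T98G, and TYK2, STAT2 and IRF3 lower. The JAK1 difference was 1.14 on the log2 scale (SE 0.26, adjusted p = 1.14e-04) and that of TYK2 -1.29 (SE 0.30, adjusted p = 1.47e-04), so the receptor-bound kinases differed in opposite directions. STAT2 differed by -0.99 (SE 0.21, adjusted p = 2.43e-05) and IRF3 by -0.76 (SE 0.22, adjusted p = 0.00255). IRF7 had 55 counts in T98G NC against 1 in U251 NC, a ratio of 64.3 with an exact 95% counting interval of 11.1 to 2587 (adjusted p = 2.83e-11).

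Among PEPD-OE libraries 5 members were called, where 52.6% of all genes were: IFNAR2 (1.06, SE 0.37, adjusted p = 0.0106) and JAK1 (1.58, SE 0.23, adjusted p = 2.02e-09) were higher in T98G. TYK2 (-1.28, SE 0.27, adjusted p = 1.49e-05), STAT2 (-0.95, SE 0.25, adjusted p = 6.97e-04) and IRF1 (-0.37, SE 0.13, adjusted p = 0.0137) were lower. IRF7 was not called here, with 7 against 2 counts (ratio 4.22, interval 0.804 to 41.7, adjusted p = 0.116). The IFNAR2 call was lost with DESeq2 (0.0541) and without T98G PEPD-OE replicate 1 (0.0686) or 3 (0.0571), and that of IRF1 without T98G PEPD-OE replicate 2 (0.0832), without both T98G libraries numbered 2 (0.0925) or with IRF1-AS1 added (0.0719). Without U251 PEPD-OE replicate 1, IRF7 was called (adjusted p = 0.0142).

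From high to low, STAT2 ran U251 NC, U251 PEPD-OE, T98G NC, T98G PEPD-OE, and only U251 PEPD-OE and T98G NC overlapped. TYK2 ran U251 PEPD-OE, U251 NC, T98G PEPD-OE, T98G NC, with an overlap between the U251 groups only. For IRF1 the NC groups overlapped at the top, followed by U251 PEPD-OE and T98G PEPD-OE. For JAK1 the order was T98G PEPD-OE, T98G NC and then the overlapping U251 groups. Per kb of exon in T98G NC, IRF1 had the highest level at 34.6 CPM per kb, then IRF3 at 10.5, IRF7 at 10.1, JAK1 at 7.73, STAT2 at 6.87, IFNAR2 at 2.48, TYK2 at 2.19, IFNAR1 at 2.13 and IRF9 at 0.41.

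Each called member was also matched to the 3 tested genes whose log2 CPM ran most like it over the 12 libraries, given as Pearson's r. The libraries share 2 lines and 4 groups, so r reflects group differences and depth as much as anything within a group. IRF7 ran most like FGF14 (0.979), AC005046.1 (0.974) and PIH1D2 (0.97). STAT2 ran most like RBBP4 (0.955), MTRFR (0.955) and ADGRA2 (0.946). For IRF1 the closest named genes were RRP36 (0.905) and PSMD14 (0.897), behind ENSG00000288096 (0.941). JAK1 ran most like TFPI (0.963), LINC02068 (0.96) and MAPK12 (0.959), IFNAR2 like SKP2 (0.919), STAG1 (0.878) and IFT140 (0.86), and IRF3 like ZC3H8 (0.942), GNL1 (0.914) and AL450306.1 (0.914). None of the genes listed is another member or an opposite-strand partner.

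The genes around the members were read from 7 further lists. Where a gene is marked as opposite another, exons of the named gene overlap it on the other strand. The strand question raised for the members holds for the list genes as well. At the start of the loop, the 21 interferon ligand genes held 52 counts in all libraries together and 14 of them none, IFNB1 (interferon beta) among the latter. None could be tested. By group they had 3 counts in T98G PEPD-OE, 6 in T98G NC, 31 in U251 PEPD-OE and 12 in U251 NC. IFNA1 alone held 33 of the 52 counts, with 22 in U251 PEPD-OE and 8 in U251 NC.

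Of 15 nucleic acid sensing genes upstream of IRF3 and IRF7, 8 were tested. In each line 1 fell, where 14.7% of all genes in T98G and 4.42% in U251 were called lower. A count of 1 does not set the list apart. The gene was IFIH1, which encodes the RNA sensor MDA5. In T98G it went from 114 ± 14.8 to 11.5 ± 5.05 CPM (log2 fold change -3.28, SE 0.26, adjusted p = 6.93e-24). In U251 it went from 155 ± 17.8 to 104 ± 9.997 CPM (log2 fold change -0.57, SE 0.15, adjusted p = 0.00525), a call lost without U251 NC replicate 2 (adjusted p = 0.0515). The groups did not overlap in either line. The list's median log2 fold change was -0.48 in T98G and -0.24 in U251.

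Of the 8 other interferon and cytokine receptor genes, 4 were tested (median 0.18 in T98G and 0.13 in U251). In T98G 1 of the 4 was called, where 32.3% of all genes were. OSMR (opposite RICTOR), the oncostatin M receptor chain that signals through JAK1, rose from 53.4 ± 11.6 CPM in T98G NC to 89.1 ± 18.1 in PEPD-OE (log2 fold change 0.76, SE 0.20, adjusted p = 0.00138). That call was lost without T98G NC replicate 3 (adjusted p = 0.0572), and none of the 4 was called in U251.

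Of 12 other JAK, STAT and IRF genes, 4 were tested (STAT3, STAT5B, STAT6 and IRF5), and edgeR and DESeq2 called none of them in either line. STAT3, which carries the signal of IL6-family receptors, came closest in T98G. Its libraries had 65.1, 52.98 and 69.8 CPM in PEPD-OE and 50.7, 50.7 and 31.4 in NC. The groups did not overlap, and the log2 fold change was 0.53 (SE 0.22, edgeR unadjusted p = 0.0173, adjusted p = 0.0528). It was the 1 gene of the 4 with an unadjusted edgeR p under 0.05 in T98G, and in U251 there were 0. In U251 the STAT3 libraries had 39.2, 38.2 and 42.7 CPM in PEPD-OE and 44.5, 41.2 and 46.1 in NC, which overlapped. The list's median was 0.06 in T98G and 0.08 in U251.

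Of 22 negative regulators and nuclear import genes, 15 were tested. In T98G 4 rose and 1 fell (median -0.01), and in U251 1 rose and none fell (median -0.21). These 5 and 1 of 15 lie near the 32.3% and 8.55% of all genes called, so the counts do not set the list apart. The gene that fell was USP18, which removes ISG15 and damps signalling at IFNAR2, with 1 count in T98G PEPD-OE against 29 in NC, a ratio of 28.7 with a counting interval of 4.76 to 1172. In U251 it had 15.9 ± 2.03 CPM in PEPD-OE and 8.38 ± 0.667 in NC (adjusted p = 0.194).

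SOCS3, the feedback inhibitor of JAK1, rose from 33.7 ± 2.26 CPM in T98G NC to 60.7 ± 6.76 in PEPD-OE (log2 fold change 0.86, SE 0.25, adjusted p = 0.00334). IRF2BP2 (opposite AL160408.2), an IRF2-binding corepressor, rose from 55.4 ± 6.34 CPM to 110.1 ± 25.1 in T98G (log2 fold change 0.96, SE 0.19, adjusted p = 8.94e-06). The importins KPNA1 (opposite WDR5B-DT) and KPNA6, which carry cargo proteins into the nucleus, rose by 0.75 (SE 0.18, adjusted p = 4.18e-04) and 0.78 (SE 0.28, adjusted p = 0.0237). The KPNA6 call was lost with DESeq2 (adjusted p = 0.0844), with no filter on low counts (0.0678), without T98G PEPD-OE replicate 3 (0.0984) or NC replicate 1 (0.0894) or 2 (0.0832), and without both libraries numbered 2 (0.117). In U251 the gene that rose was PIAS1 (opposite CALML4), an inhibitor of STAT signalling, by 0.61 (SE 0.13, adjusted p = 4.50e-04).

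The ISGF3 target genes, downstream of STAT2 and IRF9, were the list with the largest shift. Of 39 genes 37 were tested, and 36 fell in T98G with none higher, where 14.7% of all genes were called lower. The median log2 fold change was -3.24 (-3.21 with a group at 0 counts placed at 3 counts over the group). In U251 15 fell and none rose (median -0.41), or 9 without U251 NC replicate 2, where 4.42% of all genes were called lower. IFIT3, an RNA-binding antiviral protein, went from 97.8 ± 8.22 to 2.49 ± 3.07 CPM in T98G (log2 fold change -5.20, SE 0.36) and from 174 ± 15.3 to 111 ± 7.72 in U251 (-0.64, SE 0.15). ISG15 (opposite AL645608.3), a ubiquitin-like modifier, went from 190 ± 20.4 to 10.9 ± 1.84 CPM in T98G (-4.11, SE 0.22) and from 950 ± 88.7 to 525 ± 108 in U251 (-0.85, SE 0.10). IFIT1 fell by 2.54 (SE 0.25) in T98G and 0.89 (SE 0.13) in U251.

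RSAD2 (opposite CMPK2), the antiviral enzyme viperin, had 1 count in T98G PEPD-OE against 30.3 ± 0.966 CPM in NC, a ratio of 61.4 with an interval of 10.6 to 2462. In U251 it had 51.2 ± 4.69 CPM in PEPD-OE and 67.3 ± 12.3 in NC and was not called (adjusted p = 0.247). IFITM1, which blocks virus entry, fell by 2.40 (SE 0.15) in T98G and 0.65 (SE 0.11) in U251. IFIT2 (opposite LIPA) fell by 4.19 (SE 0.41) and 0.88 (SE 0.21). In T98G PEPD-OE its counts were 1, 5 and 0 by library, and the fitted change there was -6.01 without PEPD-OE replicate 2 and -5.93 without both libraries numbered 2. For IFIT3 these counts were 4, 1 and 0, and its change was -6.74 without PEPD-OE replicate 1.

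Of 17 genes listed as targets of IRF1 and interferon gamma, 12 were tested, and in T98G 7 fell and 2 rose (median -1.10). Of all genes in T98G, 14.7% were called lower and 17.7% higher. GBP1, an interferon gamma-induced GTPase, went from 77.1 ± 12.6 to 21.4 ± 3.59 CPM (log2 fold change -1.82, SE 0.25, adjusted p = 1.57e-10). WARS1 (opposite WDR25), the tryptophan tRNA ligase, fell by 2.12 (SE 0.23), TAP1 (opposite PSMB8-AS1) by 2.08 (SE 0.37), GBP3 by 1.52 (SE 0.33) and the immunoproteasome gene PSMB8 (opposite PSMB9) by 1.36 (SE 0.34), the last lost without T98G NC replicate 3 (adjusted p = 0.0607). GBP2, a GTPase of the same family, went the other way, from 41.4 ± 15.7 to 107 ± 14.5 CPM (log2 fold change 1.29, SE 0.20, adjusted p = 2.41e-08). CIITA (opposite DEXI) was the other gene that rose, from 423 ± 4.19 CPM in T98G NC to 564 ± 10.2 in PEPD-OE. Whether reads of DEXI stand under CIITA was not tested, so this rise may not be one of CIITA. In U251 GBP2 was the one gene called, and it fell by 0.73 (SE 0.19, adjusted p = 0.00439), a call lost without U251 NC replicate 1 (0.078) or PEPD-OE replicate 3 (0.0504). The list's median there was -0.18, and 8.55% of all genes were called there.

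**Figure D4:**
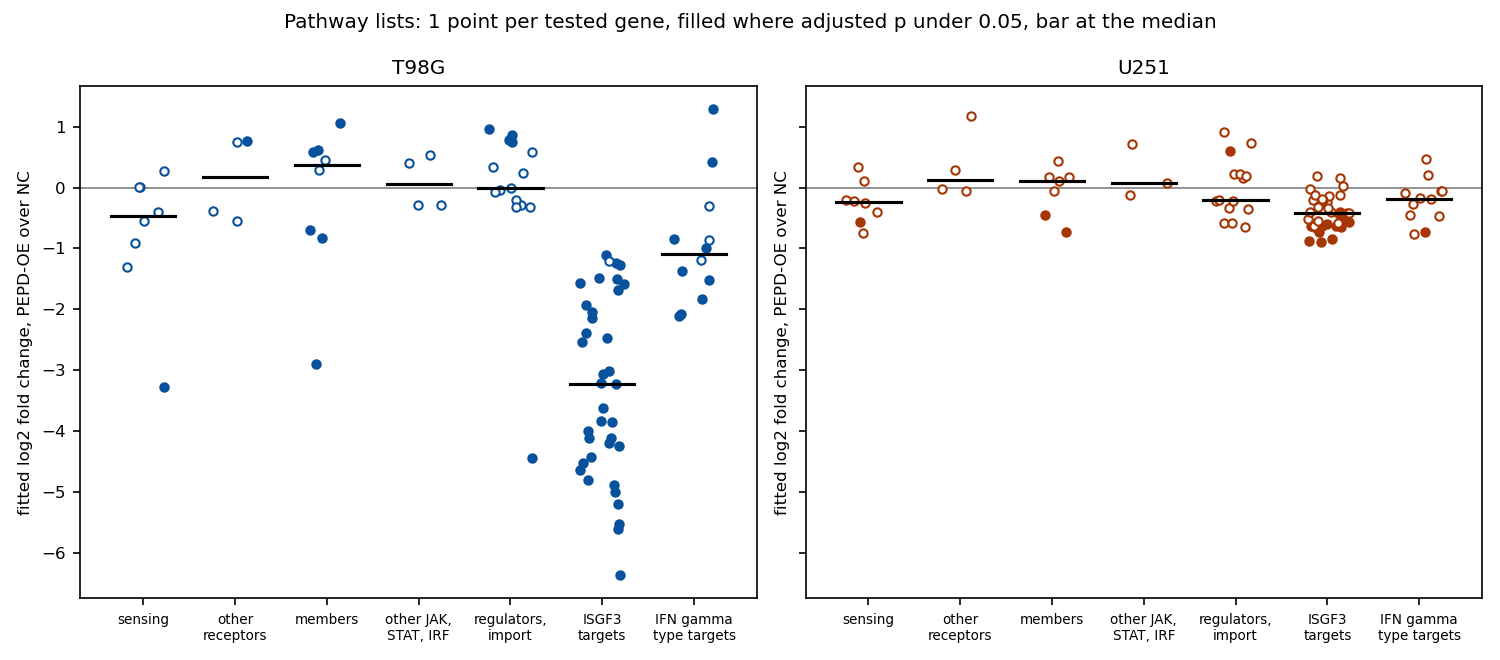
Fitted log2 fold change of PEPD-OE over NC (vertical axis) for every tested gene of the members and 6 further lists with a fold (points, filled where called, horizontal positions spread at random), with list medians as bars; T98G left, U251 right. ISGF3 targets have a median of -3.24 in T98G and -0.41 in U251, while other receptors, other JAK, STAT and IRF genes and regulators have medians between -0.21 and 0.18 in both lines.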

How the data were processed

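Per the labels' protocols, poly(A) RNA was made into strand-specific libraries with dUTP marking. FastQC, fastp, HISAT2, Subread, featureCounts and the build GRCh38 appear in the submitters' processing notes. Not given in the sources used here were tool versions, the annotation release and how the strand was handled. The authors deposited raw counts per Ensembl gene, 1 column per library, assigned to samples by library name. Totals were 464056 to 924204 counts, and the whole table was fitted. With edgeR 4.0.16 in R 4.3.3, genes were kept by filterByExpr (minimum count 10), scaled by TMM and fitted by quasi-likelihood (robust, 4 group means), with Benjamini-Hochberg adjustment of the two-sided p-values. The SE is the log2 fold change over the square root of F, and can lie below counting error at few counts. An exact test of 3 against 3 cannot go below 0.1. The fit was tested on simulated data.

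GENCODE release 29 gave positions and exons for 58228 identifiers. Where a group had 1 to 3 counts a ratio with an exact interval is given, and where both had at most 3 no fold. The members and lists were chosen with earlier results of these data known. One listed gene is not reported here. Named were all members, up to 6 called genes per list and line by size (at least 2 CPM on average in the higher group; part of these are described), opposite-strand partners, PEPD, and 3 most alike genes per called member (log2 CPM, prior count 2). OLIG2, SOX2, DCN, EPCAM, PTPRC, STAT3, CIITA, IFNA1, IFNB1, MT-ND5 and MT-ND6 are not covered by this rule and were picked with their values in view. Alternatives were DESeq2 1.42.0, upper-quartile or RLE scaling, robust estimation off, no filter, at least 1 CPM in 3 libraries, genes without opposite-strand overlap, member and partner summed, each line alone, the replicate number as a block, and each library left out. Added after seeing the data were leaving out mitochondrial genes, TALAM1, MALAT1 and BEST1, and both T98G libraries numbered 2.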

Additional observations from a re-analysis of the deposited data

Results flagged for a closer look

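For these genes the T98G change differed from the U251 change by the edgeR test of that difference (log2 fold change in T98G minus that in U251, adjusted over all genes tested). Among genes opposite the members, the difference was 0.66 for IL10RB-DT, -0.95 for IRF1-AS1 and 1.33 for BCL2L12. Among sensing genes it was -2.71 for IFIH1. Among regulators and importins it was 0.78 for IRF2BP2, 1.45 for SOCS3, 1.09 for KPNA1 and -0.61 for PIAS1. Among ISGF3 targets it was -4.59 for MX1, -4.56 for IFIT3, -4.49 for IFI44L, -3.31 for IFIT2, -3.26 for ISG15, -1.75 for IFITM1 and -1.65 for IFIT1. Among IRF1 and interferon gamma targets it was -2.58 for WARS1, -1.99 for TAP1, -1.77 for GBP1, -1.73 for GBP3 and 2.02 for GBP2. Groups of 3 libraries were not tested for a single outlying library.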

How the results depend on the processing

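Few counts limit most results, above all those of the rarer members. The parts of sequencing depth and of strand assignment in these few counts were not tested. Of the T98G members called, 2 remained with DESeq2 (6 in edgeR), 3 with no filter, 1 of those without opposite-strand overlap, 4 without both libraries numbered 2, and 3 to 6 as each library was left out. Without overlapping genes 1 was called in U251, 3 between NC libraries and 2 between PEPD-OE libraries. In U251 leaving out a library gave 1 to 2 members. For the difference between lines it gave 0 to 1, and summing members with partners gave 3. In all, DESeq2 called 2093 genes against 2837 in T98G and 425 (157 higher, 268 lower) against 750 (362 higher, 388 lower) in U251. Of the 4176 genes without overlap, 1140 and 245 were called.

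Changes near 0 reversed. In U251 these were IFNAR2 (-0.17) and IRF3 (0.12) summed with their partners. On leaving out libraries IFNAR1 ran from -0.13 to 0.58, IFNAR2 from -0.28 to 0.66, JAK1 from -0.059 to 0.42 and IRF3 from -0.20 to 0.085. The STAT2 difference between lines was -0.0064 with upper-quartile scaling and -0.013 with the replicate block, and -0.091 to 0.19 on leaving out libraries. The replicate block left 6 and 2 members called (2859 and 792 genes). Over all genes, the deviations of same-numbered libraries correlated at -0.04 to 0.06, too weakly to treat the numbers as pairs, although both T98G libraries numbered 2 held immune marker counts.

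Among T98G lists, sensing genes gave 2 calls at a minimum of 1 CPM and 1 to 2 on leaving out libraries. Other receptors gave 2 with upper-quartile scaling, the block, each line alone or mitochondrial genes left out, 0 without overlapping genes and 0 to 2 on leaving out libraries. Other JAK, STAT and IRF genes (0 called) gave 1 with RLE scaling, without overlapping genes or without both libraries numbered 2, and 0 to 1 on leaving out libraries. Without overlapping genes, regulators and IRF1 or interferon gamma targets gave 3 each. In U251, dropping overlapping genes left 0 regulators and 9 ISGF3 targets. Leaving out libraries gave 0 to 1 sensing genes and 0 to 1 IRF1 or interferon gamma targets, 1 to 2 regulators and 9 to 15 ISGF3 targets. Dropping genes or libraries tests fewer of them; otherwise the cause was not tested.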
